A study of Danio rerio with 7 samples.

Results

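The semaphorin, plexin, Slit, Robo, netrin, Unc5 and Dcc genes were taken by symbol, as those that begin with sema, plxn, slit, robo, ntn or unc5, or are dcc. In ATAC-seq of sorted zebrafish cells, 38 of these genes were the nearest promoter of 481 of the 44025 peaks listed as differing between *kdrl*:GFP+ and *kdrl*:GFP- cells. These 38 stood among 9030 genes with a symbol. The gene table held 1 more, *ntn4*, which was the nearest promoter of 0 listed peaks, so that 39 of its 14612 genes fitted the rule. The *ntn4* model lies only on an unplaced scaffold, so its 0 does not show that its chromatin was alike in both populations. The rule itself uses symbols and no measured value.

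Semaphorins, Slits and netrins are extracellular cues that steer growing axons and also migrating cells, including those of blood vessels. Plexins receive semaphorin signals, often together with neuropilin co-receptors. Robo proteins receive Slits, and Dcc and Unc5 proteins receive netrins, with Dcc linked to attraction and Unc5 to repulsion. In zebrafish, *plxnd1* is the plexin of the endothelium, where it reads semaphorin cues from the somites that keep intersegmental vessels on their paths.

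Cells came from wild-type embryos carrying Tg(*kdrl*:GFP)s843, in which the promoter of the endothelial receptor gene *kdrl* drives GFP. They were sorted at 26 to 27 h post fertilisation, with 40000 to 50000 cells per library and 16 cycles of amplification, and the GFP+ gate held the brighter GFP+ cells only. The *kdrl*:GFP- cells were the GFP-negative cells of the same transgenic embryos, and thus a mixture of many tissues. Dimmer GFP+ cells were in neither population. The labels give 3 libraries of each population and 1 genomic DNA control from 30000 cells at 28 to 30 h, amplified for 9 cycles. The study's methods state instead that 2 *kdrl*:GFP+ and 4 *kdrl*:GFP- libraries entered the comparison, after outlying *kdrl*:GFP+ replicates were removed.

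Each peak has 1 deposited value per population, the log2 of the mean normalised reads of its libraries, here called the concentration. The log2 difference was the concentration in *kdrl*:GFP+ cells minus that in *kdrl*:GFP- cells. As no value of a single library was used, no difference has an error or a test here, and the depth of the libraries is unknown. Every peak in the table had already passed the authors' test, so the smallest difference among the 481 peaks was 0.79 in size, and chromatin open to the same degree in both populations is not listed. In sorted mixtures, fewer cells with an open region and less opening per cell cannot be told apart.

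Endothelial and neural markers as groups fitted the sort, with 44.7% of all listed peaks higher as background. Around 9 of 12 endothelial marker genes 74 of 83 peaks were higher in *kdrl*:GFP+ cells. Among these, *cdh5* had only 5 of 9 higher and 1 at -3.14, and *tie1*, *pecam1* and *esam* had 0 listed peaks. Around 10 neural marker genes 10 of 125 peaks were higher. Around 6 muscle genes 16 of 25 peaks were higher, 13 of them at *mef2cb*, and the other 5 genes had 3 of 9. Around 3 of 6 blood genes 5 of 6 peaks were higher, and the part of muscle or blood cells in the results below was not tested.

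Of the 481 guidance gene peaks, 153 (31.8%) had the higher concentration in *kdrl*:GFP+ cells, compared with 44.7% of all listed peaks. The other 328 were lower, where the background was 55.3%. Their median log2 difference was -1.54, against -1.19 over all listed peaks. Differences above 3, an 8-fold higher mean, were found for 51 peaks (10.6%, background 17.8%), and differences below -3 for 71 (14.8%, background 13.3%). Together the guidance genes thus had a lower share of peaks that were more open in *kdrl*:GFP+ cells, and the range of single peaks ran from -8.03 at *unc5b* to 8.79 at *sema3ga*. In 31 peaks 1 population stood at the lowest concentration of the table, -0.36 for *kdrl*:GFP+ and 0.22 for *kdrl*:GFP- cells, which 1450 and 1499 listed peaks share. These included 7 of the 51 peaks above 3 and 20 of the 71 below -3, and their differences depend on that lowest value.

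Because the listed peaks as a whole lay at a median of -1.19, the counts were also taken relative to that median, which shifts every difference by 1.19. Then 178 of the 481 peaks (37.0%) were higher, against a share of 50.0% that the centring fixes over all peaks, and their median was -0.36. The medians of *dcc*, *plxnb2b*, *sema5a* and *sema6e* turned from below to above 0 with this scaling, and those of the other 34 genes kept their sign.

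**Figure D1:**
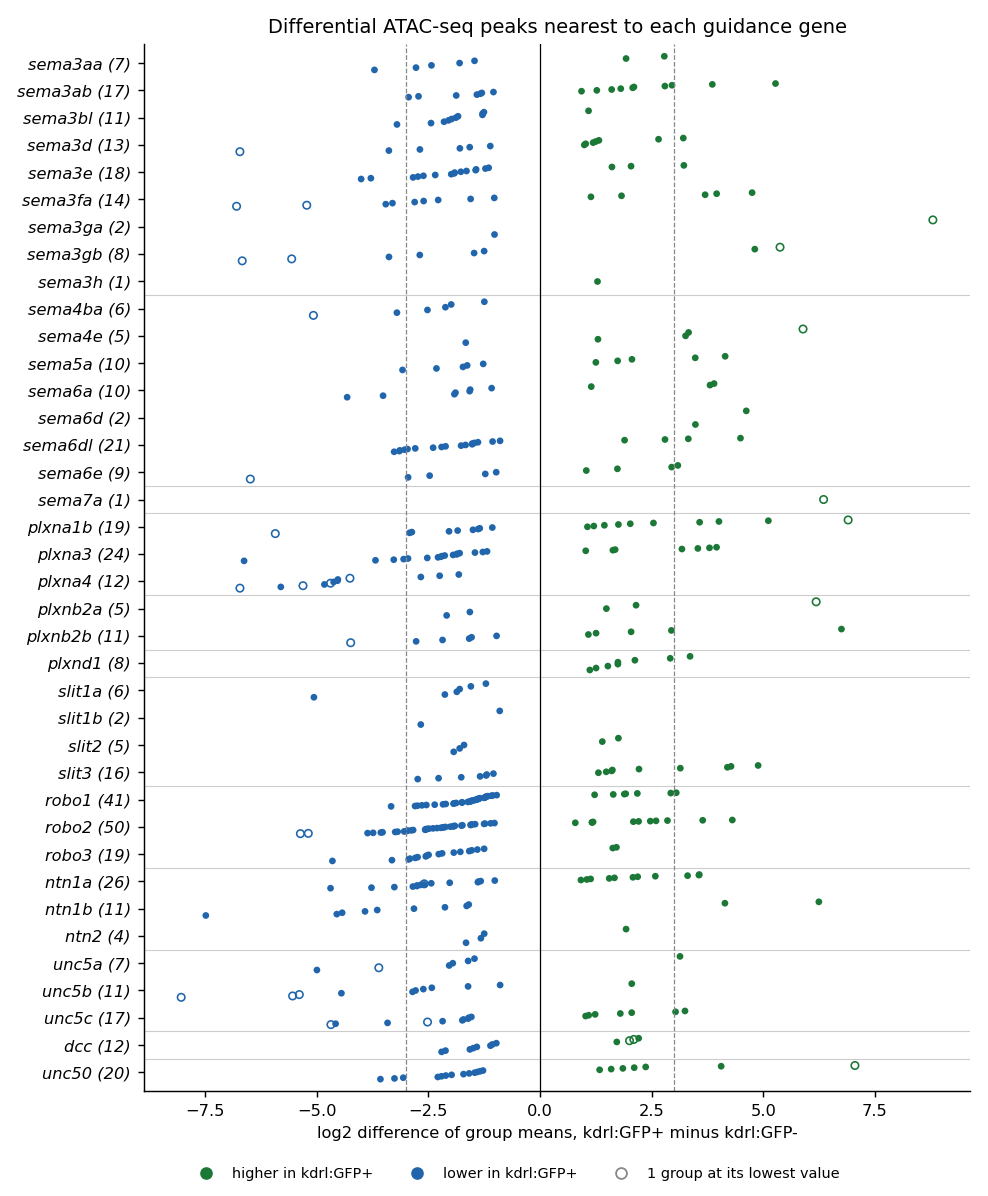
Log2 differences (horizontal axis) of the 481 peaks by nearest gene (vertical axis, number of peaks in brackets), grouped by family. Green points are higher and blue points lower in *kdrl*:GFP+ cells, open symbols have 1 population at its lowest concentration, and dashed lines mark -3 and 3. All 8 *plxnd1* peaks lie on the right and all 12 *plxna4* peaks on the left.

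Gene by gene, 10 of the 38 had more higher than lower peaks, 26 had more lower than higher peaks and 2 had as many of each, compared with 4100, 4001 and 929 of the 9030 genes. Peaks in both directions were the rule. Only *plxnd1*, *sema3h*, *sema6d* and *sema7a* had higher peaks alone, and only *plxna4*, *sema4ba*, *slit1a* and *slit1b* lower peaks alone, of which *slit1b* loses this with the centring and *sema3ga* then joins the genes with higher peaks alone. Of all genes, 29.5% had higher peaks alone and 23.7% lower peaks alone. A peak above 3 was found at 26 genes, a peak below -3 at 25, both at 18, and neither at 5. Over all genes, 46.8% had a peak above 3 and 32.2% a peak below -3. Guidance genes collected more peaks, with a median of 11 per gene against 3 over all genes, and these shares of genes were not matched on the number of peaks.

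The endothelial receptor gene *plxnd1* had 8 peaks on chromosome 8 and all were higher in *kdrl*:GFP+ cells (median 1.74). The peak over its start and first exon (Zv9 chr8:56154581-56157889) stood at a concentration of 11.03 in the *kdrl*:GFP+ population against 8.11 in the *kdrl*:GFP- population, 2.92 higher. The largest difference, 3.36, lay 9.0 kb upstream (chr8:56146608-56147374), where the concentrations were 6.61 and 3.26. This was the only 1 of the 8 above 3, and both populations were well above the lowest value in each of them.

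The other 5 upstream peaks of *plxnd1* were intergenic. At 26.4 kb upstream the concentrations were 7.07 against 5.95 (difference 1.12, *kdrl*:GFP+ given first here and below), and at 20.4 kb they were 10.02 and 7.90 (2.13). At 13.5 kb they were 6.30 and 4.56 (1.74), and at 10.8 kb 10.16 and 8.91 (1.26). At 2.4 kb they were 9.39 and 7.64 (1.75). The region upstream of the annotated start thus held peaks whose 2 means lay 1.12 to 3.36 apart on the log2 scale.

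Within *plxnd1*, the peak in intron 2 had 9.05 and 7.53 (1.52). A further 2 peaks lay in its gene body but nearer to the promoter of *apeh*, in intron 3 (chr8:56169852-56170480) and over its end (chr8:56170728-56171797). Their concentrations were 6.30 and 2.77 (3.53) in intron 3, and 8.48 and 3.98 (4.50) at the end. All 8 peaks by nearest promoter and all 4 in the gene body were thus higher, or 10 of 10 when both assignments were counted together. Among all genes with at least 8 listed peaks by nearest promoter, 40 of 1702 (2.35%) had higher peaks only, a share that does not apply to the 10. This group also holds genes with more than 8 peaks. With at least 6 peaks the share was 4.2%, and with at least 12 it was 0.12%. The share at exactly 8 peaks was not computed. The *plxnd1* model of the gene table is short, with 6 exons over 15.3 kb. It holds 1670 exon bases, against 6204 at *plxna3* and 5712 at *plxna4*. Parts of the gene outside it would be counted as intergenic, so its start, first exon and upstream distances are uncertain.

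**Figure D2:**
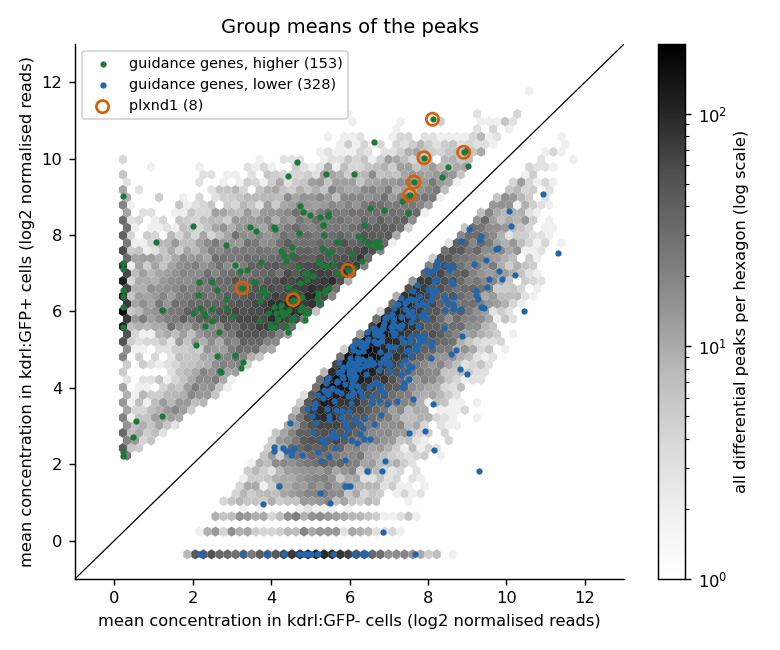
Concentrations in *kdrl*:GFP- (horizontal axis) and *kdrl*:GFP+ cells (vertical axis), both as log2 mean normalised reads, for all 44025 listed peaks (grey hexagons, log colour scale) and the 481 guidance gene peaks (153 green, higher; 328 blue, lower). Orange circles mark the 8 *plxnd1* peaks, all above the diagonal of equal means, and the band along the diagonal is empty because only differing peaks are listed.

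Among the ligands, 80 of 225 peaks at 24 semaphorin, Slit and netrin genes were higher (35.6%, background 44.7%, median -1.41). Above 3 were 32 (14.2%, background 17.8%), and below -3 another 32 (14.2%, background 13.3%). The same background shares stand beside each family below. Class 3 semaphorins are the secreted vertebrate class, most of which signal through neuropilins and A-type plexins. Their 9 genes had 91 peaks, of which 32 were higher, 10 were above 3 and 13 below -3 (median -1.43).

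The largest difference of all 481 peaks lay in intron 1 of *sema3ga* (chr8:26524609-26525426), a class 3 gene whose mouse counterpart is expressed in arterial endothelium. Its concentration was 9.01 in *kdrl*:GFP+ cells and at the lowest value, 0.22, in *kdrl*:GFP- cells (8.79). The only other *sema3ga* peak, 9.7 kb upstream, was lower (7.19 and 8.23, -1.04). Its copy *sema3gb* had 8 peaks, all upstream, with 2 higher and 6 lower. A pair of its peaks about 45 kb upstream reached 4.81 (6.04 and 1.23) and 5.37 (5.59 and the lowest value), while another stood at -6.66 (the lowest value and 6.30). High and low peaks thus lay within the same 38.8 kb before 1 gene.

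*sema3ab*, a copy of the repulsive cue Sema3a, had 17 peaks, of which 10 were higher (median 1.27). Its promoter peak was higher, with 9.77 against 8.50 (1.27). A peak 67.0 kb upstream (chr18:8769473-8770497) had 9.92 against 4.65 (5.27), and one at 50.3 kb 7.06 against 3.20 (3.86). The 6 most distant upstream peaks were all higher. The other copy, *sema3aa*, had 2 of 7 peaks higher (median -1.80). Its promoter peak was lower, with 6.20 against 8.63 (-2.43), so the promoters of the copies differed in direction.

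*sema3d* and *sema3e* lie on either side of *sema3ab* on chromosome 18, so that the 3 genes hold 48 peaks within 750 kb. In mouse, Sema3e is the ligand of Plxnd1 that needs no neuropilin. *sema3d* had 7 of 13 peaks higher (median 0.99), including 1 at 3.21 (8.46 and 5.26) and 1 at -6.72 (the lowest value and 6.36). *sema3e* had 3 of 18 higher (median -1.84), with a range from -4.0 to 3.22. Most *sema3e* peaks lay far from the gene, with 15 of 18 intergenic and a median distance of 233 kb from the start. In its own introns 1 of 3 was higher. The difference between these neighbouring ligand genes in the share of higher peaks therefore holds by nearest promoter, and for *sema3e* rests largely on distant peaks.

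Of the remaining class 3 genes, *sema3fa* had 5 of 14 peaks higher and spanned -6.79 to 4.75. The lower of these had the lowest value against 6.43, and the upper 8.21 against 3.46. *sema3bl* had 1 of 11 higher (1.09). *sema3h* had a single peak, 2.9 kb upstream, with 6.48 and 5.19 (1.28).

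Transmembrane semaphorins of classes 4 to 6 act at cell contacts. Their 7 genes had 63 peaks, 22 of them higher (34.9%), 12 above 3 (19.0%) and 10 below -3 (15.9%), with a median of -1.52. *sema4e* had 4 of 5 higher, of which 3 were above 3. The highest, at 5.89, lay 64.5 kb downstream of its start and had 6.11 against the lowest value, whereas its promoter peak was lower, with 6.43 against 8.09 (-1.66). *sema6d* had 2 peaks and both were above 3, at 3.48 (9.60 and 6.12, 2.9 kb upstream) and 4.62 (6.77 and 2.16, in intron 1). *sema6e* had a promoter peak at 2.95 (7.32 and 4.37) and an intron 1 peak at 3.09 (8.54 and 5.46), and also a peak at -6.48 with *kdrl*:GFP+ cells at the lowest value. Promoter peaks of this group thus ran in both directions.

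*sema6dl* had 21 peaks, mostly in 256.6 kb upstream, and 4 were higher. The highest was 4.49 (8.10 and 3.61) and lay 258 kb upstream, and its 4 higher peaks were among the 5 farthest upstream. *sema5a*, whose product also carries thrombospondin repeats, had 5 of 10 higher, up to 4.15. *sema6a*, a ligand of A-type plexins, had 3 of 10 higher, from -4.32 to 3.90. A further 4 peaks in the *sema6a* gene body were nearest to *commd10*, and 1 of these in intron 9 had 9.89 against 4.76 (5.13). *sema4ba* had 6 of 6 lower, down to -5.07. *sema7a*, the membrane-anchored semaphorin, had 1 peak, in exon 10, with 6.57 against the lowest value (6.35).

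Slits, the repulsive ligands of Robos, had 29 peaks at 4 genes, of which 11 were higher (37.9%, median -1.21). *slit3* held 9 of these 11, among its 16 peaks. They included 4 above 3. The highest lay 56.8 kb upstream (chr14:25817185-25817911), with 7.74 against 2.86 (4.88), and the others had 9.59 and 5.39 (4.20), 6.77 and 2.49 (4.28) and 7.68 and 4.54 (3.14). No *slit3* peak was below -3 by nearest promoter. The gene body held 6 more peaks assigned to the promoter of the microRNA gene *mir218a-1* inside it. Of these, 2 were higher, at 5.50 and 3.49, and 4 lower, down to -5.30, so that 11 of 22 peaks were higher when all were counted.

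*slit2* had 2 of 5 peaks higher, from -1.93 to 1.76, and 3 more in its intron 4, nearest to *mir218a-2*, were all lower (-2.92, -1.52 and -2.19). *slit1a* had 6 of 6 lower. Its promoter peak had 9.06 against 10.92 (-1.86), and an intron 4 peak 2.86 against 7.92 (-5.06). *slit1b* had 2 of 2 lower, at the promoter with 7.08 against 7.98 (-0.90, which the centring turns to 0.29) and in an intron with 4.74 against 7.41 (-2.67). In Zv9 the *slit1b* model is split over both strands, so its locus is uncertain. Of the Slit genes, only *slit3* had more higher than lower peaks.

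Netrins had 41 peaks at *ntn1a*, *ntn1b* and *ntn2*, of which 14 were higher (34.1%), 5 above 3 (12.2%) and 8 below -3 (19.5%), with a median of -1.59. By nearest promoter, the *ntn1a* peaks on chromosome 6 were largely divided by the start of the gene. The 15 upstream peaks spanned 669 kb, and 11 of them were higher (median 1.55). The 4 lower ones lay 122.8 kb or more from the start. All 11 peaks in its introns were lower (median -2.67), 10 of them also after the centring. The 4 nearest upstream peaks, from 27.7 to 7.0 kb, had 8.71 against 6.53, 6.52 against 5.38, 7.30 against 3.75 and 6.06 against 2.49, with differences of 2.19, 1.13, 3.56 and 3.57. In intron 4 a peak (chr6:18107070-18110398) had 7.53 against 11.30 (-3.77), and a neighbour had 2.83 against 7.51 (-4.69).

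Its copy *ntn1b* on chromosome 3 was divided within the gene. Both peaks in intron 1 were higher, with 8.24 against 1.99 (chr3:25895693-25896155, 6.24) and 8.20 against 4.06 (4.14). All 6 in introns 4 and 5 were lower, from -2.82 to -7.48, the last with 1.81 against 9.29 (chr3:25836207-25837017). In both netrin 1 copies, then, all listed peaks in introns 4 and 5 were lower. *ntn2* had 1 of 4 peaks higher (1.93), all of them intronic.

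**Figure D3:**
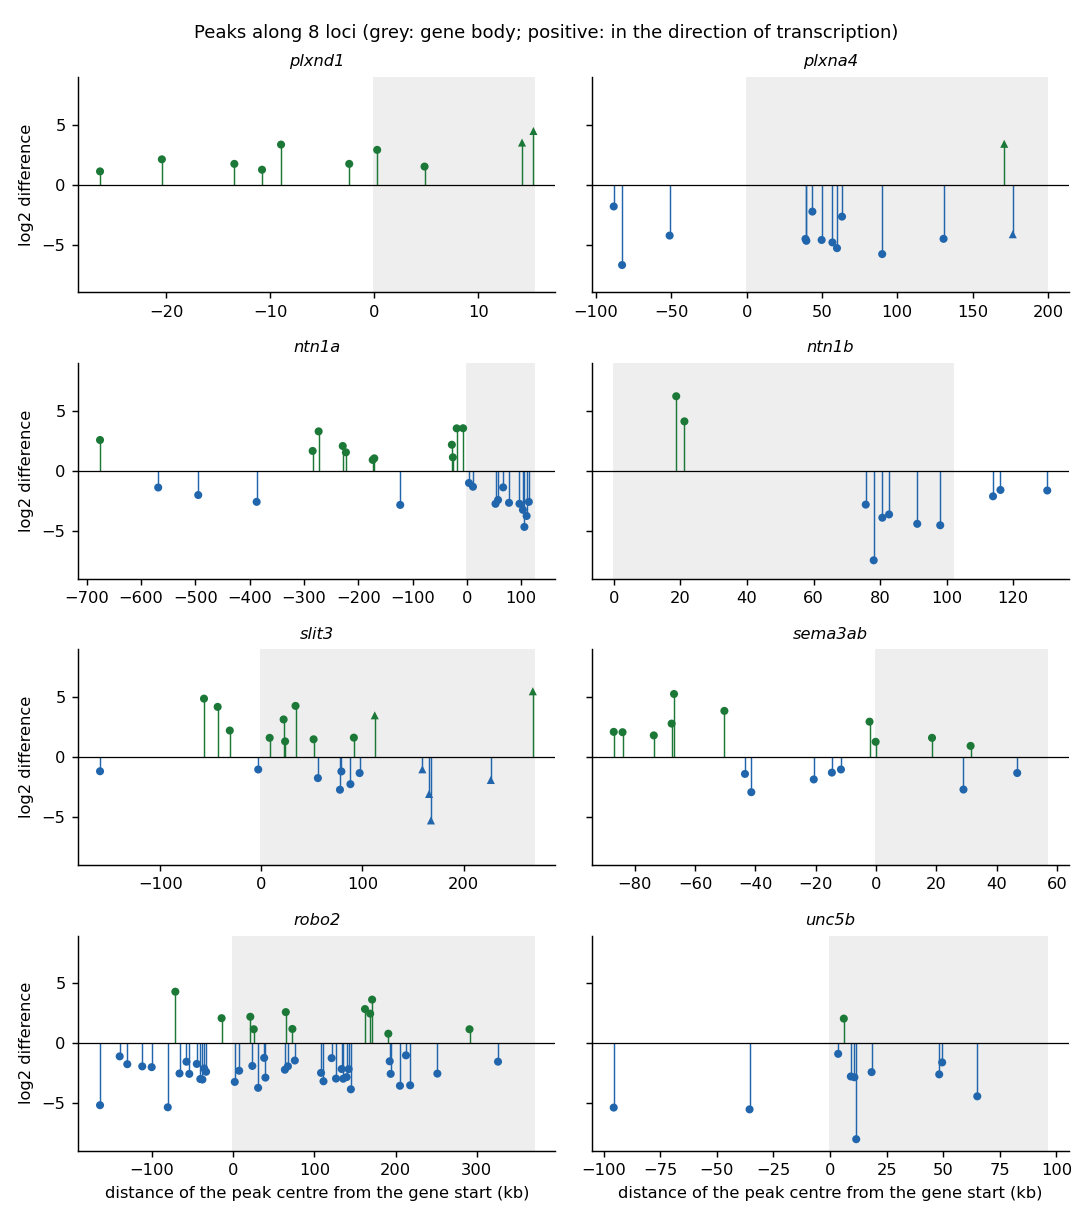
Log2 difference (vertical axis) of each peak against the distance of its centre from the gene start in kb (horizontal axis, positive in the direction of transcription) at 8 genes, with the gene body in grey. Circles are peaks whose nearest promoter is the gene, and triangles peaks in the gene body nearest to another promoter. At *ntn1a* 11 of 15 upstream peaks point up and 11 of 11 intronic ones down, and at *plxna4* all 12 circles point down.

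Receptor genes had 236 peaks at 13 genes, of which 66 were higher (28.0%), 17 above 3 (7.20%) and 36 below -3 (15.3%), with a median of -1.59. Robo genes held 110 of these 236 peaks, and 20 of the 110 were higher, so the receptor share rests largely on them. Without *plxnd1*, 25 of 71 plexin peaks were higher (median -1.58). A-type plexins, the partners of neuropilins, had 55 peaks, of which 17 were higher (30.9%), 8 above 3 (14.5%) and 14 below -3 (25.5%), with a median of -1.86.

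*plxna4* was the opposite of *plxnd1*. Its 12 peaks on chromosome 4 were all lower in *kdrl*:GFP+ cells (median -4.58), and 9 were below -3. In intron 2 the concentrations were 2.36 against 8.16 (chr4:14395441-14396267, -5.80), 2.08 against 6.90 (-4.82) and 1.83 against 6.45 (-4.62), for example. The lowest difference, -6.72, lay 82.7 kb upstream in an intron of *chchd3*, with *kdrl*:GFP+ cells at the lowest value, as in 4 of the 12. Of all genes with at least 12 listed peaks, 30 of 817 (3.67%) had lower peaks only. This group also holds genes with more than 12 peaks, and with at least 6 peaks the share was 7.53%. A pair of *plxna4* intron peaks nearest to the promoter of *nrf1* had -4.14 and 3.43, so that 13 of 14 were lower when these were added.

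*plxna1b* had 10 of 19 peaks higher, including 4 above 3. In intron 3, a peak had 7.12 against the lowest value (6.90) and its neighbour 8.75 against 4.74 (4.01), while another stood at -5.92. A peak 14.5 kb upstream had 9.55 against 4.44 (5.11). The model of *plxna1b* is placed in 3 pieces, so these distances are uncertain. *plxna3*, which in zebrafish guides motor axons out of the spinal cord, had 7 of 24 peaks higher (median -1.86), from -6.62 to 3.95, and 22 of the 24 were in its own introns.

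B-type plexins, receptors of class 4 semaphorins, had 8 of 16 peaks higher (median 0.06). *plxnb2a* had 3 of 5 higher, all upstream, and the peak 2.8 kb before its start had 6.40 against the lowest value (6.18). *plxnb2b* had 5 of 11 higher. A peak 22.5 kb upstream (chr25:5819748-5820182) had 7.82 against 1.07 (6.75), and the lowest stood at -4.24. Each copy thus had 1 peak above 6 on the log2 scale in its upstream region.

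Robo genes had the most peaks and the lowest share of higher ones of the families with at least 10 peaks, 20 of 110 (18.2%, median -1.74). *robo1* and *robo2* lie next to each other on chromosome 15 and held 91 peaks in 1146 kb, 18.9% of all guidance gene peaks. *robo1* had 7 of 41 higher (median -1.41), and all 20 peaks in its first intron were lower, from -0.97 to -3.33, 17 of them also after the centring. *robo2* had 11 of 50 higher (median -2.06), from -5.36 to 4.31. *robo3*, which in vertebrates is needed for axons to cross the midline, had 2 of 19 higher (median -2.27). All 9 in its introns 2 to 11 were lower, the lowest with 4.36 against 9.01 (-4.64). Above 3 were 1 *robo1* peak (3.05) and 2 of *robo2*, and 1 in the last intron of *robo3*, nearest to *tmem218*, had 7.25 against 4.14 (3.11).

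Unc5 receptors had 9 of 35 peaks higher (25.7%), 3 above 3 (8.57%) and 9 below -3 (25.7%), with a median of -1.74. In 6 of the 35, 3 of them at *unc5b*, *kdrl*:GFP+ cells stood at the lowest value. The share below -3 thus depends in part on that value. *unc5b*, whose product is a netrin receptor of endothelial tip cells in mouse and zebrafish, had 10 of 11 peaks lower, 9 of the 11 in its first intron. The lowest of all 481 lay there (chr13:29363246-29363879), with *kdrl*:GFP+ cells at the lowest value and 7.67 in *kdrl*:GFP- cells (-8.03). The nearest intron 1 peak to the start had 8.15 against 9.04 (-0.89), and the only higher one, 6.1 kb into the gene, 5.75 against 3.70 (2.06). Listed peaks at this gene were thus mostly more open in the *kdrl*:GFP- population.

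*unc5a* combined a higher promoter with lower peaks elsewhere. Its promoter peak (chr14:52037672-52038078) had 7.46 against 4.32 (3.13), and the other 6 peaks were lower, among them 1 at 2.2 kb upstream in *dctn4* with 1.83 against 6.82 (-4.99). *unc5c* had 7 of 17 higher, from -4.68 to 3.25. In its own gene body lay 4 of its peaks, which were annotated to intron 5 of *bmpr1bb*. *dcc* had 4 of 12 peaks higher, or 7 after the centring, and none past 3 in either direction (-2.20 to 2.21). In 2 of the 4 the *kdrl*:GFP- value was the lowest and the *kdrl*:GFP+ value no more than 2.32.

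*unc50* begins with the letters of the Unc5 family but is not a netrin receptor gene. Its 20 peaks, all upstream on chromosome 6, included 7 higher, of which the highest was 7.05 (7.27 and the lowest value) at 264 kb from its start. Without it, 146 of 461 peaks were higher (31.7%, median -1.55).

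Only 8 of the 481 peaks lay within 1 kb of a start, beside 1410 of all 44025 listed peaks. Of the 8, 4 were higher, close to the share over all peaks so placed (660 of 1410, 46.8%). The higher ones belonged to *plxnd1* (2.92, at the uncertain start of its short model), *unc5a* (3.13), *sema6e* (2.95) and *sema3ab* (1.27). The lower ones belonged to *slit1a* (-1.86), *sema3aa* (-2.43), *sema4e* (-1.66) and *slit1b* (-0.90). The higher group held 2 receptor and 2 ligand genes, and the lower group 4 ligand genes, too few to compare receptors with ligands. Among named copies, both *slit1* genes had lower peaks alone, and both netrin 1 genes had more lower than higher peaks, with 11 of 26 higher at *ntn1a* and 2 of 11 at *ntn1b*. *sema3ga* had 1 of 2 higher and *sema3gb* 2 of 8, and the *sema3a* and *plxnb2* copies differed in the sign of their medians, the latter not after the centring. The *plxnb2* comparison leaves out *plxnb2a.2*, listed under a clone name, with 1 of 4 peaks higher and a median of -2.0.

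Peaks of guidance genes were more often intronic than all listed peaks, 46.8% against 25.7%, and less often intergenic, 50.9% against 67.5%. Of the 225 intronic ones, 217 were annotated to an intron of the gene itself and 8 to one of another gene. The latter include the 4 *unc5c* peaks that also lie in its own gene body. They also lay farther from the start, with 20.8% against 30.5% within 20 kb and medians of 51.8 and 41.8 kb. Gene lengths were not matched in this comparison.

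The low share of higher peaks was mostly found away from the starts. Within 1 to 20 kb, 43.5% of guidance gene peaks were higher and 49.1% of all peaks. At 20 to 100 kb the shares were 27.2% and 44.9%, and beyond 100 kb 31.1% and 39.0%. In introns they were 25.3% and 45.7%, and in intergenic sequence 36.3% and 42.9%. Neighbouring peaks of a guidance gene had the same direction in 299 of 443 pairs (67.5%), as did 67.5% of pairs over all genes.

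**Figure D4:**
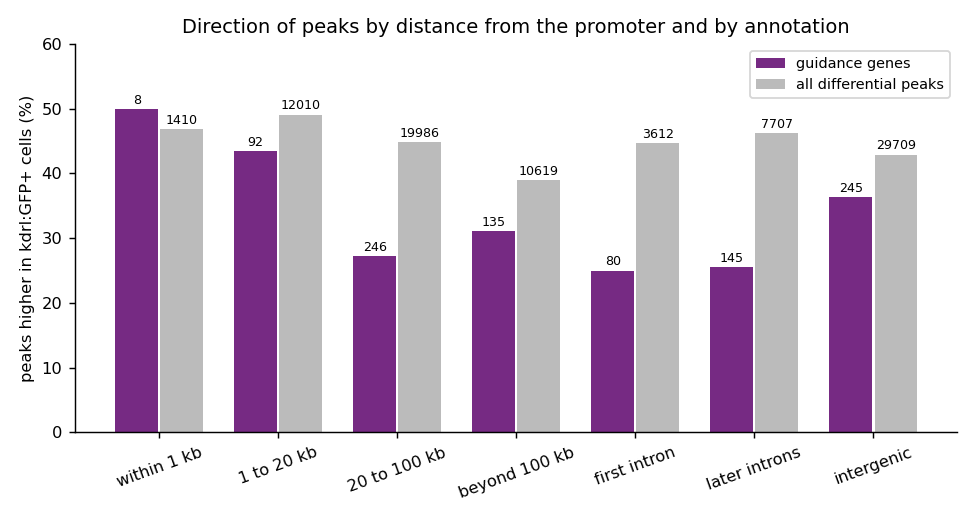
Share of peaks higher in *kdrl*:GFP+ cells (vertical axis, percent) for guidance genes (purple) and all listed peaks (grey), by distance from the nearest start and by annotation (horizontal axis), with the number of peaks above each bar. The shares lie closest within 1 to 20 kb (43.5% and 49.1%) and intergenically (36.3% and 42.9%), apart from the 8 peaks within 1 kb, and are 27.2% and 44.9% at 20 to 100 kb.

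Co-receptors and signalling partners of these genes were described by a further list of 54 genes, of which 32 had listed peaks. Of their 306 peaks, 110 were higher (35.9%, background 44.7%), with a median of -1.53 against -1.19 over all listed peaks. Above 3 were 42 (13.73%, background 17.8%), and below -3 were 55 (17.97%, background 13.3%). More higher than lower peaks were found at 9 of these genes and more lower ones at 23, beside the 4100 and 4001 of 9030 over all genes. The neuropilins bind class 3 semaphorins and vascular endothelial growth factor. *nrp1a* had 10 of 15 peaks higher (median 1.40) and *nrp1b* 12 of 16 (1.62), compared with 5 of 17 at *nrp2a* (-1.66) and 15 of 39 at *nrp2b* (-1.22). The *nrp2b* median lay close to that of all listed peaks, -1.19. *mical2b*, of a family of actin-oxidising enzymes downstream of plexins, had 4 of 4 higher (median 3.49), and *trioa* 8 of 8 (2.02). Other genes of the list had lower peaks alone, among them *rnd2* with 6 and *rnd1b* and *l1cama* with 5 each. Of all genes with at least 8 listed peaks, 2.35% had higher peaks only. With at least 6 peaks, 7.53% had lower peaks only. Such shares were not computed for genes with at least 4 or 5 peaks. The netrin receptor genes *neo1a* and *dscama* had 3 of 16 and 1 of 10 higher.

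The symbols are those of the table. By accession, the RefSeq annotation of GRCz12tu names *sema6d* *sema6ca*, *sema6dl* *sema6d*, *sema6e* *sema6cb*, *unc5c* *unc5cb* and *plxnb2a* *plxnb2a.1*. Genes listed under clone names are now *sema4c*, with 11 of 21 peaks higher (median 1.00), *sema3b*, with 0 of 8 (-1.91), and *plxnb2a.2*, with 1 of 4 (-2.0). *sema4c* encodes a ligand of Plxnb2.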

How the data were processed

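The study sequenced ATAC libraries of sorted *kdrl*:GFP+ and *kdrl*:GFP- cells with a genomic DNA control. The authors used Trimmomatic 0.32 for trimming and BWA 0.7.12 for alignment to Zv9, called peaks against the control and compared the populations with DiffBind (edgeR method). They deposited, for each differential peak, the log2 mean normalised reads per population, which are the values used here. How reads were scaled, and whether they were shifted for the transposase, is not given in the sources used here. The authors' fold and p-value columns were not used. A second table gave exon positions only. Its fold changes, mean expression, p-values and FDR for a comparison named WT and Mo, and 6 columns of per-sample values that match no sample here, were not used.

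From the peak table the difference of the population values was computed, and peaks were counted by nearest RefSeq promoter, direction, a log2 difference of 3, annotation and distance. Gene bodies ran from the first to the last exon on 1 strand, with 1 shared base as overlap. No test over libraries could be made. The members and lists were chosen with earlier results of these data known. The text names every *plxnd1* peak, every peak within 1 kb of a start and every gene with at least 10 peaks. It also names the 3 genes with the highest and the 3 with the lowest differences of each family, and all pairs of copies by the symbols used. *sema6d* and *sema6e*, currently *sema6ca* and *sema6cb*, were thus not compared as copies. Other genes and peaks were named after their values were seen. Alternatives were other peak assignments, thresholds, centring and peak filters. The counting steps were tested on simulated data. Python 3.11.15, pandas 2.3.3 and matplotlib 3.10.9 were used. No sequence is shown, as no genome of this build was used.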

Additional observations from a re-analysis of the deposited data

How the results depend on the processing

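Values of single libraries were not used, so leaving out a replicate could not be done, and no paired analysis was possible because each population has 1 mean per peak. Depth and replicate spread are unknown for the same reason. Reported were 153 higher peaks, 51 above 3 and 71 below -3. Without peaks at the lowest concentration, 11.3% instead of 14.8% were below -3, beside 11.1% of all peaks so filtered. Of 100 peaks within 20 kb of a start, 44 (44.0%) were higher, 18 (18%) above 3 and 7 (7.0%) below -3, beside 48.8%, 20.4% and 12.1% of all peaks so placed. In gene bodies, 70 of 252 peaks (27.8%) were higher, 25 above 3 (9.92%) and 42 below -3 (16.7%). With at least 50% of the peak inside the gene, 68 of 248 (27.4%) were higher, 25 above 3 (10.1%) and 42 below -3 (16.9%). Then 6 of 35 instead of 10 of 38 genes had more higher peaks. Shares over the bodies of all genes were not computed. Of all intronic peaks, 45.7% were higher, 19.4% above 3 and 13.7% below -3. Centring gave 37.0% higher, a median of -0.36, 93 peaks above 3 (19.3%) and 35 below -3 (7.28%), beside 31.7% and 5.22% of all peaks, and turned the *slit1b* promoter to 0.29. Peaks whose higher concentration reached the median numbered 248, with 83 higher (33.5%), 33 above 3 (13.3%) and 31 below -3 (12.5%), beside 48.4%, 21.5% and 11.6% of all peaks. A threshold of 2 counted 86 peaks above it (17.9%) and 170 below its negative (35.3%), one of 4 counted 23 (4.78%) and 36 (7.48%), and a linear 3-fold difference 113 (23.5%) and 227 (47.2%). The shares over all peaks were 28.9% and 29.3%, 10.9% and 6.02%, and 35.3% and 39.3%. Limiting peaks to 100 kb, using current symbols, or leaving out *unc50* or *robo1* and *robo2*, the last pair of settings chosen after the data were seen, moved no count by over 1.5 times. The median stayed below 0 in every setting. Where it was computed, that over all peaks was below 0 too, except for the centring, which fixes it at 0. Within 20 kb of a start the medians were -1.04 for guidance gene peaks and -0.95 for all peaks. Promoter motif counts were not run.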
